A study of Mus musculus with 8 samples.

Results

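The genes described here are 46 members of the autophagy machinery and of the group that regulates the transcription factor TFEB. They were listed by name, from kinases that start autophagy to the receptors that bring in cargo. No measured value enters the rule, though the list was drawn up with earlier results of these data known. All 46 were found by symbol among the 55536 entries of the deposited count table that carry a gene identifier. The table was made from liver RNA of lean wild-type C57BL/6 mice aged 2 months. In 4 knockdown samples an adenovirus had delivered a short hairpin RNA against Eif4ebp3, a binding protein that restrains the cap-binding factor eIF4E. In 4 control samples the adenovirus hairpin was directed at lacZ, a bacterial gene that mice lack. Both groups received 0.1 OD of virus, had free access to food, and were fasted overnight before the liver was taken 1 week after the injection, so fasting and virus are shared by the controls. The labels do not say whether the samples of a group came from separate animals or which liver cells took up the virus, and whole tissue was measured.

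Autophagy is the route by which a cell encloses part of its cytoplasm in a double membrane and delivers it to the lysosome. The ULK1 kinase complex starts the process, a lipid kinase complex built on Becn1 marks the site with PI3P, lipid transfer proteins feed the growing membrane, and a ubiquitin-like conjugation system attaches ATG8 proteins such as LC3 to it, where cargo receptors bind. In the fasted liver autophagy supplies amino acids and lipids. TFEB and TFE3 are transcription factors of lysosomal and autophagy genes that mTORC1 holds in the cytoplasm by way of the Rag GTPases, on which FLCN and its FNIP partners act.

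Estimated counts assigned to named genes summed to between 24189216 and 32074059 per sample. Eif4ebp3 itself held 9.62, 13.9, 37.2 and 19.5 normalised CPM (counts scaled to depth with TMM factors) in knockdown replicates 1 to 4 and 290, 216, 204 and 49.3 CPM in control replicates 1 to 4. Control replicate 4 lay nearest to the knockdown samples, and knockdown replicate 3 nearest to the controls. TMM is a scaling that sets the typical gene to no change, and its factors were 1.15 to 1.27 in knockdown samples and 0.776 to 0.89 in controls. Without these factors the median of all 15375 genes tested shifted to a log2 fold change of 0.56, so every change below is relative to the median gene and the value under total-count scaling is given where the direction turns. Hepatocyte markers marked both groups as liver, with Alb at 42110 ± 4191 CPM in knockdown and 40860 ± 4895 CPM in control samples (SD, n = 4 each). Of 11 hepatocyte markers 9 fell, and their summed level was 61360 to 79170 CPM in knockdown and 71680 to 95930 CPM in control samples. Of 11 macrophage markers tested 10 rose (sum 1667 to 1935 CPM in knockdown, 645 to 856 CPM in control samples), of 10 T and NK cell markers 9 rose and 1 fell (sum 42.1 to 58.9 CPM in knockdown, 15.1 to 28.6 CPM in control samples), and of 10 stellate cell markers 8 rose (sum 568 to 976 CPM in knockdown, 202 to 248 CPM in control samples). Of 8 endothelial markers 2 fell and 1 rose (sum 172 to 333 CPM in knockdown, 280 to 319 CPM in control samples), and of 5 cholangiocyte markers tested 3 rose (sum 80.2 to 116 CPM in knockdown, 46.7 to 59.7 CPM in control samples). None of the 3 B cell markers tested or the 3 neutrophil markers tested passed the test (sums of at most 5.06 and 5.49 CPM in knockdown, 4.11 and 4.61 CPM in control samples), and no marker of these lists was at 0 in all samples. The part of these cells in the results below was not tested, and in whole tissue fewer cells of a type and less RNA per cell cannot be told apart.

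Relative to the median gene most of the machinery was lower in knockdown samples, a call that 7 members kept under total-count scaling, while the few members that rose were Rragd, Tfe3 and Atg12. Of the 45 members that passed the filter on low counts, 29 fell and 3 rose, 64.4% and 6.67%, against 27.8% and 29.5% of all genes tested (edgeR's quasi-likelihood test, adjusted p under 0.05). The median log2 fold change of knockdown over control was -0.55, against a median of 0.00 over all genes. The groups stood apart without overlap for 25 members that were lower and 3 that were higher, and the shares over all genes were 24.7% and 27.4%. The median deviation of the members from the control mean was -0.48, -0.46, -0.29 and -0.47 (log2) in knockdown replicates 1 to 4 and 0.03, 0.01, 0.00 and -0.06 in control replicates 1 to 4, so all 4 knockdown samples lay below the controls and replicate 3 lay nearest to them. All 32 called members had the same sign in the authors' deposited table. That table gives 28 members a negative and 4 a positive log2 fold change with an adjusted p under 0.05, and marks 3 of them as significant, Rragd, Bnip3 and Atg9b. Only 2 of the 32 called members, Bnip3 and Rragd, changed by at least 2-fold, and 20 changed by at least 1.5-fold. Under total-count scaling 20 members were higher and 7 lower, with a median of 0.02, against 63.9% and 7.72% of all genes. Without control replicate 4, 4 members were higher and 28 lower. Ulk1, Ulk2, Wipi1, Atg2a, Atg3, Gabarapl2 and Bnip3 fell under both scalings, and Rragd, Tfe3 and Atg12 rose under both.

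**Figure D1:**
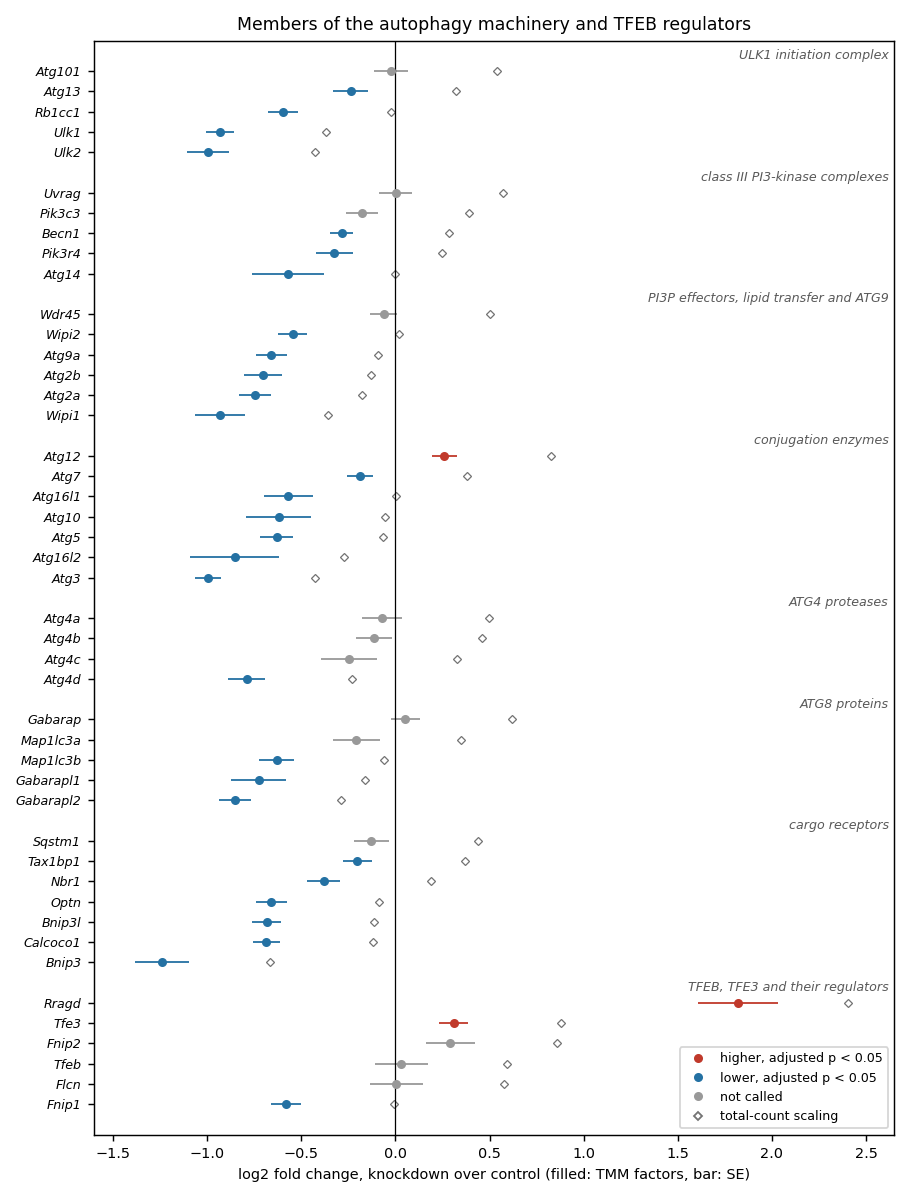
Log2 fold change of knockdown over control for the 45 members tested, by role. Filled points are the values with TMM factors with their SE, coloured by call, and open diamonds are the values under total-count scaling. The 29 lower members lie left of 0 and Rragd stands farthest right at 1.82.

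Promoters were searched for the core of the CLEAR element, the site at which TFEB and TFE3 bind. The letters TCACGTG were sought on both strands in the 250 bases before each transcription start of RefSeq (build GRCm38, the mm10 assembly), where 39 of the 46 members have an entry. They were present for 3 of the 39 genes (7.69%), Atg3, Atg7 and Fnip1, against 3.58% of 27025 genes. All 3 belong to the members that fell relative to the median gene, as did 25 of the 39 genes with an entry. Under total-count scaling Atg7 was higher and Fnip1, at -0.01, was not called. The stretches outside annotated exons are shown 5′ to 3′ on the strand of the gene, with each match in capitals, to let the sites be seen beside the values. The positions are chr16:45158707-45158784 (plus strand) for Atg3, chr6:114670846-114671095 (plus strand, at a start inside the gene) for Atg7 and chr11:54437929-54438178 (plus strand) for Fnip1.
Atg3 promoter: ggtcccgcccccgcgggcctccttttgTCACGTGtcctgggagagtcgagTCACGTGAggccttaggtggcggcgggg
Atg7 promoter: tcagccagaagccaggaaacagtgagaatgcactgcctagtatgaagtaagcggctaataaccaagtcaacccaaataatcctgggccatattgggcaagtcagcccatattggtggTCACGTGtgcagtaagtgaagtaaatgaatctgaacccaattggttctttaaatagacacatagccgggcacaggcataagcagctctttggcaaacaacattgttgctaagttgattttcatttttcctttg
Fnip1 promoter: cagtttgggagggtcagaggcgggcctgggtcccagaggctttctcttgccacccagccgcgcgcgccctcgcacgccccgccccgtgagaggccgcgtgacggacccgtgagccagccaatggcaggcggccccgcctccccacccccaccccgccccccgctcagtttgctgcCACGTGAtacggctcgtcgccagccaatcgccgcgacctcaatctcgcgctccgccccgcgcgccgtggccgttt
In Atg3 the second block of capitals holds overlapping matches, one on each strand. The core of the antioxidant response element, TGAC followed by any 3 bases and GC on either strand, was present for 4 of the 39 genes (10.3%), Atg13, Fnip2, Tax1bp1 and Ulk2, against 11.5% of all genes. A match of letters is a description and not a bound site, and an absent match says only that these letters are not in the window.

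Of the 5 genes of the ULK1 complex 4 fell, with a median log2 fold change of -0.60 over the 5. Of all genes tested 27.8% fell. Total-count scaling gave 2 higher and 2 lower, where 63.9% of all genes were higher and 7.72% lower. Ulk1 (mm10 chromosome 5, 110784488 to 110810097, as are all positions given), the kinase that receives signals from mTORC1 and AMPK, held 60.3, 61.5, 69.3 and 63.5 CPM in knockdown replicates 1 to 4 and 127, 117, 115 and 127 CPM in control replicates 1 to 4. Its paralog Ulk2 (chromosome 11, 61775649 to 61855073) held 33.6, 30.7, 39 and 26.2 CPM in knockdown and 60.7, 69.1, 63.5 and 64.2 CPM in control samples. No knockdown value of either kinase reached the lowest control, and the log2 fold changes of -0.93 ± 0.07 and -0.99 ± 0.11 (SE) had adjusted p of 2.81e-06 and 2.95e-05 (edgeR). Under total-count scaling they were -0.37 and -0.43 and still passed. Rb1cc1 encodes FIP200, the scaffold of the complex, and held 39.6, 35.1, 35 and 37.4 CPM in knockdown and 59, 56.5, 57.1 and 50.1 CPM in control samples. It fell by 0.60 ± 0.08 on the log2 scale (adjusted p = 7.94e-05, edgeR), a difference of -0.02 that did not pass under total-count scaling. The adaptor Atg13 held 54, 56.1, 72.4 and 58.2 CPM in knockdown and 68.9, 71.4, 71.5 and 72 CPM in control samples. There knockdown replicate 3 lay above every control while the other knockdown samples lay below, the adjusted p of 0.0493 (edgeR) was just under the threshold, and the log2 value of -0.24 turned to 0.32 under total-count scaling. With 1 sample left out at a time Atg13 passed only without knockdown replicate 3 (log2 fold change -0.34), and the other 7 values lay between -0.25 and -0.19. Atg101, the partner of Atg13, averaged 27.2 ± 2.74 CPM in knockdown and 27.7 ± 1.85 CPM in control samples (SD, n = 4 each) and was not called (adjusted p = 0.839, edgeR).

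Of the 5 genes of the lipid kinase complexes 3 fell, with a median of -0.29, where 27.8% of all genes fell. With total-count scaling 3 were higher and 0 lower, where 63.9% of all genes were higher and 7.72% lower. Becn1 (chromosome 11, 101285952 to 101302286), the regulatory subunit that gives the complex its usual name, held 65.3, 66.6, 70 and 68 CPM in knockdown and 84.8, 83.1, 82.4 and 78.8 CPM in control samples. The groups did not overlap, yet the fall of 0.29 ± 0.06 on the log2 scale (adjusted p = 0.00261, edgeR) turned to a call as higher, at 0.28, under total-count scaling. Pik3r4, which encodes the VPS15 scaffold, held 27.9, 22.3, 21.3 and 21.3 CPM in knockdown and 29.6, 29.8, 29 and 27.9 CPM in control samples. Knockdown replicate 1 stood at the level of the lowest control, and the log2 fold change was -0.32 ± 0.10 (adjusted p = 0.0147, edgeR) and 0.25 under total-count scaling. Atg14 directs the complex to the autophagosome and held 17.6, 22.1, 28.1 and 19.3 CPM in knockdown and 37, 41.1, 27.6 and 23.5 CPM in control samples. Control replicates 1 and 2 were highest, the groups overlapped, and the fall of 0.57 ± 0.19 (adjusted p = 0.0237, edgeR) was 0.00 under total-count scaling. The call was lost without knockdown replicate 1 or 4 (-0.49 and -0.52) and without control replicate 1 or 2 (-0.50 and -0.43). The catalytic subunit Pik3c3 held 17.7, 17.2, 16.6 and 17.3 CPM in knockdown and 17.4, 18.9, 20.4 and 21 CPM in control samples, and did not pass (log2 fold change -0.18 ± 0.09, adjusted p = 0.102, edgeR). Uvrag, which takes the place of Atg14 in the endosomal form of the complex, averaged 35.8 ± 0.988 CPM in knockdown and 35.8 ± 3.9 CPM in control samples, with an adjusted p of 0.992 (edgeR).

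Of the 6 tested genes for proteins that read PI3P and extend the membrane 5 fell, with a median of -0.68. The share of all genes that fell was 27.8%. Total-count scaling gave 1 higher and 2 lower, where 63.9% of all genes were higher and 7.72% lower. Atg2a, one of a pair of bridge-like lipid transfer proteins, held 75.7, 74.8, 90.8 and 78.8 CPM in knockdown and 145, 126, 132 and 134 CPM in control samples. Its log2 fold change was -0.74 ± 0.08 (adjusted p = 2.64e-05, edgeR) and -0.18, still past the threshold, under total-count scaling. Its paralog Atg2b averaged 43.6 ± 1.52 CPM in knockdown and 71.1 ± 10.2 CPM in control samples and fell by 0.70 ± 0.10, but had no call under total-count scaling, at -0.13. Wipi1 (chromosome 11, 109573331 to 109611967), a PI3P-binding propeller protein, held 16.2, 13.6, 14.1 and 17.8 CPM in knockdown and 35.7, 27.9, 23.5 and 30.7 CPM in control samples, the groups apart from each other. It fell by 0.93 ± 0.14 (adjusted p = 0.000163, edgeR), and by 0.36 under total-count scaling, where it passed too. Wipi2, the propeller protein that recruits Atg16l1, held 86.5, 87.7, 105 and 88.9 CPM in knockdown and 137, 132, 137 and 131 CPM in control samples. Atg9a, the scramblase carried on vesicles to the growing membrane, held 47.8, 49.1, 59.8 and 49.5 CPM in knockdown and 79.9, 84, 81.7 and 79.9 CPM in control samples. In both genes knockdown replicate 3 was the highest of its group but below every control, and the decreases of 0.55 ± 0.08 and 0.66 ± 0.08 (adjusted p = 0.000152 and 6.04e-05, edgeR) lost their call with total-count scaling, at 0.02 and -0.09. Wdr45, another PI3P-binding propeller, averaged 43 ± 3.03 CPM in knockdown and 44.9 ± 0.858 CPM in control samples and did not pass (adjusted p = 0.48, edgeR).

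Atg9b was the member that failed the filter on low counts. This paralog of Atg9a held 11, 12, 9 and 13 counts in knockdown replicates 1 to 4 and 0, 2, 2 and 4 counts in control replicates 1 to 4. Every knockdown sample was above every control, at levels of at most 0.349 CPM. With no filter its log2 fold change was 1.79 ± 0.63 (adjusted p = 0.0332, edgeR), and the authors' deposited table lists 1.39 on the log2 scale. Exons of Atg9b overlap those of Nos3 on the opposite strand over 294 bases, and no label tells whether reads were assigned by strand.

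Of the 7 genes of the conjugation system 6 fell and 1 rose, with a median of -0.62. The shares over all genes were 27.8% and 29.5%. With total-count scaling 2 were higher and 1 lower, where 63.9% of all genes were higher and 7.72% lower. Atg3 (chromosome 16, 45158785 to 45188538), the E2-like enzyme that transfers ATG8 proteins to lipid, held 31.1, 34, 33.8 and 35.2 CPM in knockdown and 68.4, 64.3, 69 and 65.7 CPM in control samples. Its samples were tight within each group and far apart between them, and the log2 fold change of -0.995 ± 0.07 had the smallest adjusted p of all members, 1.27e-06 (edgeR). It passed with total-count scaling as well, at -0.43, and its promoter is among the 3 printed with a CLEAR core. Atg12 (chromosome 18, 46730144 to 46741580), the ubiquitin-like protein that is joined to Atg5, held 55.5, 59.2, 57.5 and 55.5 CPM in knockdown and 48.4, 45.5, 46.6 and 49.8 CPM in control samples. Each knockdown value was above each control, and it rose by 0.26 ± 0.07 (adjusted p = 0.00587, edgeR), or by 0.83 under total-count scaling. Its conjugation partner Atg5 held 29.2, 32.5, 34.6 and 37.2 CPM in knockdown and 53.8, 50.2, 48.7 and 54 CPM in control samples. It fell by 0.63 ± 0.09 (adjusted p = 0.000113, edgeR), so the transcripts of these bound partners moved in opposite directions, though total-count scaling gave Atg5 no call, at -0.07. Atg16l1, which binds the Atg12 and Atg5 conjugate, held 35.3, 40.2, 46.8 and 42.8 CPM in knockdown and 71.1, 62.5, 65 and 46.3 CPM in control samples. Only knockdown replicate 3 and control replicate 4 overlapped. The log2 fold change of -0.57 ± 0.13 (adjusted p = 0.00346, edgeR) turned to 0.01, without a call, under total-count scaling. Atg7, the E1-like enzyme of both branches, averaged 54.5 ± 1.62 CPM in knockdown and 62 ± 3.57 CPM in control samples (SD, n = 4 each). It fell by 0.19 ± 0.07 (adjusted p = 0.0368, edgeR) but was higher, at 0.38, under total-count scaling, and lost its call without knockdown replicate 2 or 4 (-0.19 and -0.17) or control replicate 2 or 3 (-0.15 and -0.19). Atg10, the E2-like enzyme for Atg12, fell by 0.62 ± 0.17, and Atg16l2, a paralog of Atg16l1, fell by 0.85 ± 0.24, and neither passed under total-count scaling. Atg16l2 averaged 13.1 ± 2.31 CPM in knockdown and 23.6 ± 9.42 CPM in control samples, with control replicate 1 highest at 36.8 CPM. With 1 sample left out at a time its log2 fold change lay between -0.99 and -0.56, and the call was kept.

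**Figure D2:**
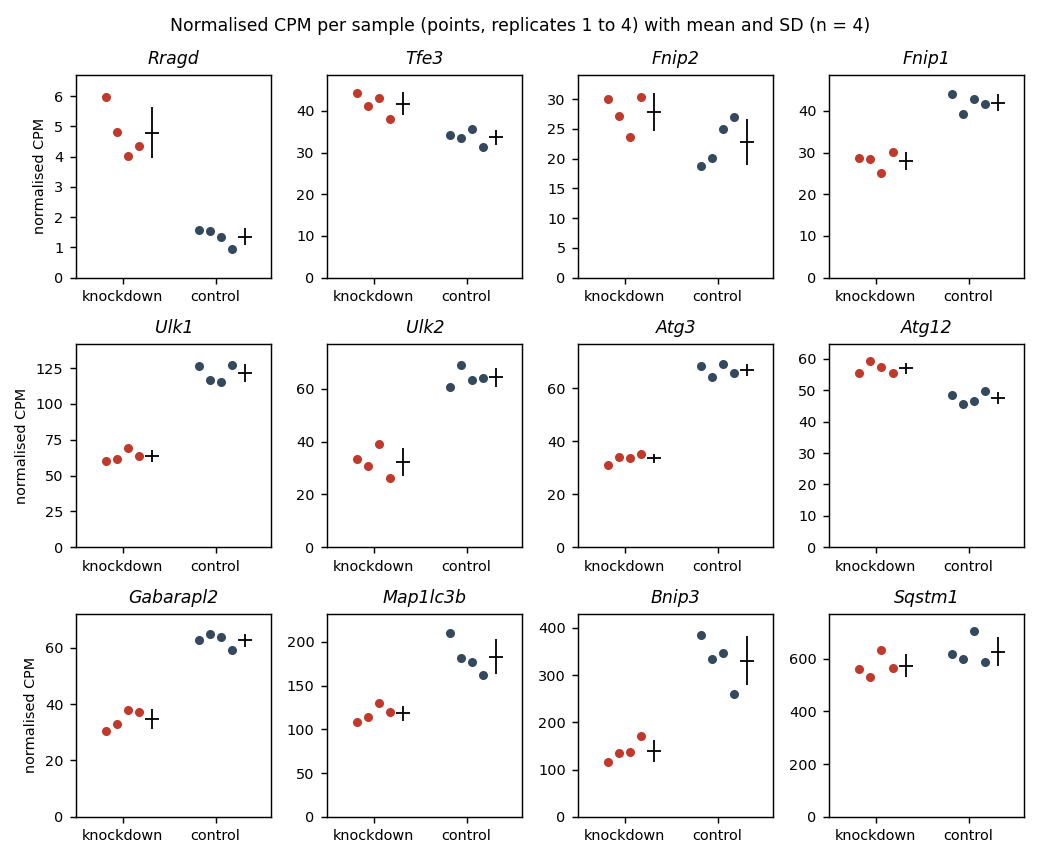
Normalised CPM of 12 members in each of the 4 knockdown and 4 control samples, with mean and SD beside the points and each axis starting at 0. Rragd, Tfe3 and Atg12 are higher in every knockdown sample, Fnip1, Ulk1, Ulk2, Atg3, Gabarapl2, Map1lc3b and Bnip3 lower, and Fnip2 and Sqstm1 overlap.

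Among the ATG4 cysteine proteases, which trim ATG8 proteins and release them from lipid, only Atg4d passed the test. It held 15.7, 19.2, 20.1 and 17.7 CPM in knockdown and 29.9, 29.6, 31.6 and 34.5 CPM in control samples, with no overlap, and fell by 0.79 ± 0.10 (adjusted p = 4.9e-05, edgeR), against -0.23 and no call under total-count scaling. Atg4b, the protease with the widest range of substrates, held 29.4, 30.1, 33.1 and 28.6 CPM in knockdown and 35.5, 34.2, 33.8 and 27.4 CPM in control samples. Atg4a held 12.5, 13.4, 11.1 and 13.7 CPM in knockdown and 12.7, 13.1, 12.4 and 15 CPM in control samples. Atg4c held 9.28, 9.57, 10.5 and 7.49 CPM in knockdown and 11.8, 12.9, 10.1 and 8.86 CPM in control samples. The groups of these 3 overlapped, and the adjusted p were 0.334 for Atg4b, 0.603 for Atg4a and 0.175 for Atg4c (edgeR). So 1 of the 4 proteases fell, where 27.8% of all genes fell. Total-count scaling gave 2 higher and 0 lower, where 63.9% of all genes were higher and 7.72% lower. Exons of Atg4d overlap those of Kri1 on the opposite strand over 1405 bases.

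Of the 5 ATG8 proteins, the ubiquitin-like tags of the autophagosome membrane, 3 fell, where 27.8% of all genes fell. With total-count scaling 2 were higher and 1 lower, where 63.9% of all genes were higher and 7.72% lower. Map1lc3b (chromosome 8, 121590361 to 121598760), which encodes the LC3B protein used as the standard marker of autophagosomes, held 108, 115, 129.6 and 119.7 CPM in knockdown and 210, 181, 177 and 162 CPM in control samples. Gabarapl2 held 30.5, 32.8, 37.9 and 37.4 CPM in knockdown and 62.8, 64.8, 63.8 and 59.2 CPM in control samples. Gabarapl1 held 183, 169, 256 and 154 CPM in knockdown and 292, 349.7, 325 and 292 CPM in control samples, with knockdown replicate 3 the highest of its group. The groups of all 3 were apart, and the decreases were 0.63 ± 0.09, 0.85 ± 0.09 and 0.72 ± 0.15 on the log2 scale (adjusted p = 0.000193, 1.26e-05 and 0.00153, edgeR). Under total-count scaling only that of Gabarapl2 passed, at -0.29. Map1lc3a held 24.2, 23.6, 34.5 and 26.7 CPM in knockdown and 30.8, 28.7, 31 and 35.2 CPM in control samples, where knockdown replicate 3 lay among the controls, and it did not pass (log2 fold change -0.21 ± 0.12, adjusted p = 0.176, edgeR) except without that sample (-0.34). Gabarap averaged 139 ± 11.8 CPM in knockdown and 134 ± 4.43 CPM in control samples (SD, n = 4 each), a log2 difference of 0.05 ± 0.08 that did not pass either (adjusted p = 0.582, edgeR).

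Of the 7 cargo receptors 6 fell, with a median of -0.66, where 27.8% of all genes fell, and Bnip3 fell by most. Total-count scaling gave 3 higher and 1 lower, where 63.9% of all genes were higher and 7.72% lower. Bnip3 (chromosome 7, 138890836 to 138909519), an outer mitochondrial membrane receptor induced by hypoxia, held 115, 136, 138 and 171 CPM in knockdown and 385, 334, 346 and 259 CPM in control samples. Control replicate 4 was the lowest control and knockdown replicate 4 the highest knockdown sample, without overlap. It fell by 1.24 ± 0.14 (adjusted p = 3.19e-05, edgeR), and by 0.66 under total-count scaling, where it passed too, and in the authors' deposited table the log2 value is -1.225. Its paralog Bnip3l, the receptor that clears mitochondria from maturing red cells, held 58.8, 57.2, 61.6 and 61.9 CPM in knockdown and 108, 96.3, 92.6 and 87.8 CPM in control samples. Calcoco1, a receptor for endoplasmic reticulum, held 29.7, 30.9, 34.7 and 32.4 CPM in knockdown and 53.3, 50.3, 49 and 52.6 CPM in control samples. Optn, a receptor for ubiquitinated mitochondria and bacteria, held 81.6, 84.8, 91 and 85.8 CPM in knockdown and 146, 123, 146 and 126 CPM in control samples. These 3 fell without overlap, by 0.68 ± 0.08, 0.68 ± 0.07 and 0.66 ± 0.08 (adjusted p = 3.23e-05, 2.14e-05 and 5.64e-05, edgeR), and none of them passed under total-count scaling. Sqstm1 (chromosome 11, 50199366 to 50210827) encodes p62, the receptor for ubiquitinated protein that also binds the NRF2 inhibitor KEAP1. It held 562, 531, 633 and 566 CPM in knockdown and 617, 598, 705 and 586 CPM in control samples. The groups overlapped, and the log2 difference of -0.13 ± 0.09 did not pass (adjusted p = 0.255, edgeR), but with total-count scaling Sqstm1 was called higher, at 0.44. Nbr1, a relative of p62, averaged 239.7 ± 16.9 CPM in knockdown and 312 ± 27 CPM in control samples and fell by 0.38 ± 0.09, and Tax1bp1 averaged 172 ± 6.72 CPM in knockdown and 197 ± 15.8 CPM in control samples and fell by 0.20 ± 0.08 (adjusted p = 0.0454, edgeR). Both turned under total-count scaling, to 0.19 and 0.37, and were higher there. With 1 sample left out at a time Tax1bp1 passed only without control replicate 4 (-0.25).

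Of the 6 genes for TFEB, TFE3 and their regulators 2 rose, 1 fell and 3 did not pass, with a median of 0.16. Of all genes tested 29.5% rose and 27.8% fell. Rragd (chromosome 4, 32983037 to 33022180), which encodes the RagD GTPase that brings TFEB and TFE3 to mTORC1 at the lysosome, held 5.96, 4.83, 4.02 and 4.36 CPM in knockdown and 1.58, 1.54, 1.34 and 0.959 CPM in control samples. The lowest knockdown sample was above the highest control, on estimated counts of 117 to 189 in knockdown and 21 to 33 in control samples. It rose by 1.82 ± 0.21 on the log2 scale, 3.53-fold (adjusted p = 3.64e-05, edgeR), and the authors' deposited table lists 1.77. Tfe3 (chromosome X, 7762560 to 7775202) held 44.4, 41.1, 43.2 and 38.1 CPM in knockdown and 34.2, 33.4, 35.6 and 31.3 CPM in control samples, again without overlap, and rose by 0.31 ± 0.08 (adjusted p = 0.0053, edgeR). Tfeb (chromosome 17, 47737030 to 47792419) held 9.5, 9.71, 11.6 and 8.75 CPM in knockdown and 8.31, 11.7, 8.7 and 9.96 CPM in control samples. The groups overlapped throughout, and the log2 difference was 0.03 ± 0.14 (adjusted p = 0.862, edgeR). Flcn, the GTPase-activating protein for RagC and RagD, held 33.5, 41.4, 40.5 and 30.3 CPM in knockdown and 37.1, 41.2, 39.4 and 27.5 CPM in control samples. In each group replicate 4 was the lowest, and the log2 difference of 0.00 ± 0.14 did not pass (adjusted p = 0.98, edgeR).

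The FLCN partners Fnip1 and Fnip2 had log2 fold changes of opposite sign, of which that of Fnip1 passed. Fnip1 (chromosome 11, 54438199 to 54518235) held 28.7, 28.5, 25 and 30.1 CPM in knockdown and 44.1, 39.2, 42.8 and 41.7 CPM in control samples, fell by 0.58 ± 0.08 (adjusted p = 0.000118, edgeR) and was at -0.01 under total-count scaling. Fnip2 (chromosome 3, 79455974 to 79567796) held 30.1, 27.1, 23.6 and 30.4 CPM in knockdown and 18.8, 20.1, 25 and 26.9 CPM in control samples. Here the groups overlapped, and the log2 fold change of 0.29 ± 0.13 did not pass (adjusted p = 0.0743, edgeR), but without control replicate 4 it was 0.38 and passed, as it did at 0.36 without knockdown replicate 3. Of the 6 genes of this group 5 were called higher and 0 lower under total-count scaling, where 63.9% of all genes were higher and 7.72% lower.

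A ratio of 2 genes within a sample does not depend on how samples are scaled, so the members with a close relative were also set against it. For Fnip1 over Fnip2 the log2 ratio of counts was -0.07, 0.07, 0.09 and -0.01 in knockdown replicates 1 to 4 and 1.23, 0.96, 0.77 and 0.63 in control replicates 1 to 4. No knockdown ratio came near the lowest control, and the mean difference was -0.88. Bnip3 over Bnip3l was 0.97, 1.25, 1.16 and 1.47 in knockdown and 1.83, 1.79, 1.899 and 1.56 in control samples, a difference of -0.56 without overlap. Atg9a over Atg9b differed by -2.58, also without overlap, on the few counts of Atg9b. Each of these 3 pairs had a two-sided exact permutation p of 0.0286, the smallest that 4 against 4 samples allow, which was 0.0952 after adjustment over the 10 pairs by the Benjamini-Hochberg method. So 0 of the 10 pairs passed after adjustment and 3 had an unadjusted p under 0.05. With only 3 pairs at the smallest possible p, these 3 could not pass after adjustment, whatever the size of the difference. Map1lc3a over Map1lc3b was higher in knockdown samples by 0.41, with means of -2.13 ± 0.16 in knockdown and -2.54 ± 0.24 in control samples (SD, n = 4 each, exact permutation p = 0.0571). For Wipi1 over Wipi2 and Tfeb over Tfe3 the differences were -0.37 and -0.27 (exact permutation p = 0.114 and 0.143), and for Atg16l1 over Atg16l2 0.23 (exact permutation p = 0.314). The remaining ratios, Ulk1 over Ulk2, Atg2a over Atg2b and Gabarapl1 over Gabarapl2, differed by 0.07, -0.05 and 0.11, each less than the larger SD of its groups (exact permutation p of at least 0.514).

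**Figure D3:**
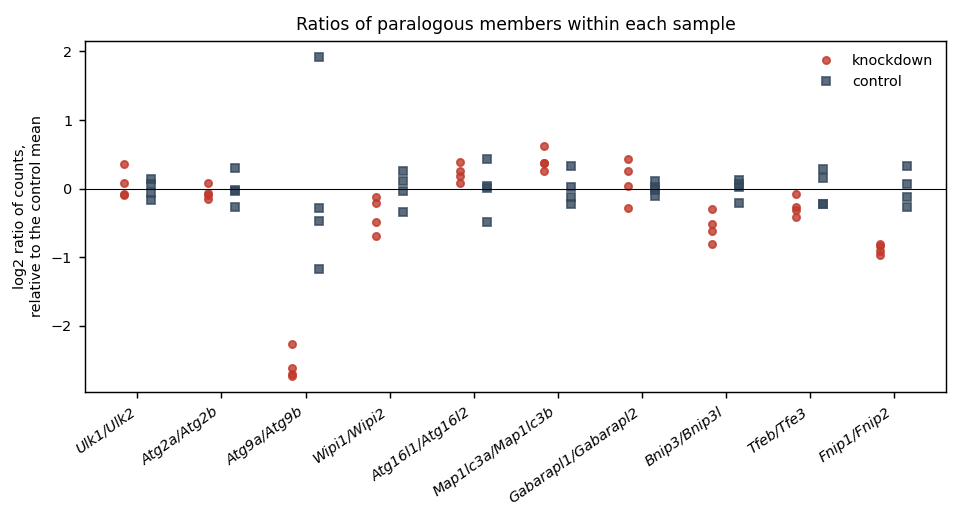
Log2 ratio of the counts of paralogous members within each of the 4 knockdown and 4 control samples, relative to the control mean of the pair. Knockdown points of Atg9a/Atg9b, Bnip3/Bnip3l and Fnip1/Fnip2 lie below every control point of the pair, while those of Ulk1/Ulk2 and Atg2a/Atg2b lie among them.

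Levels were compared between genes per kilobase of annotated exon. Sqstm1 was the most abundant member, at 171 ± 12.8 CPM per kilobase in knockdown and 187 ± 16.1 CPM per kilobase in control samples (SD, n = 4 each). In controls it was followed by Gabarapl1 at 156 ± 13.9 and Bnip3 at 146 ± 23.2 CPM per kilobase, neighbours that did not differ beyond their spread, and then Gabarap at 72.4 ± 2.4 CPM per kilobase. In knockdown samples Gabarap, at 75.2 ± 6.43 CPM per kilobase, ranked above Bnip3, at 61.8 ± 10.3 CPM per kilobase. Nbr1 and Optn came next in the controls, at 45.4 ± 3.93 and 36.1 ± 3.38 CPM per kilobase. Gabarapl2, Map1lc3a, Bnip3l and Map1lc3b lay between 24.3 and 26.9 CPM per kilobase there and did not differ beyond their spread. The scarcest members of the controls were Tfeb at 1.71 ± 0.27, Atg10 at 1.64 ± 0.20, Rragd at 0.262 ± 0.055 and Atg9b at 0.024 ± 0.019 CPM per kilobase, and those of Tfeb and Atg10 overlapped. The order depends on the length used: with the gene lengths in the authors' deposited table the control means were 584 for Gabarapl1, 307.5 for Sqstm1 and 188 for Bnip3 CPM per kilobase. With those lengths Map1lc3b, at 69.4, lay above Optn, at 56.2, and above Gabarapl2, Bnip3l and Map1lc3a, at 37.4, 29.7 and 28.3 CPM per kilobase, and the order among them depends on the length too. Within groups the samples spread by a median coefficient of variation of 9.21% in knockdown and 8.32% in control samples over the members tested, with the widest spread for Gabarapl1 in knockdown samples (23.9%) and for Atg16l2 in controls (39.8%).

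**Figure D4:**
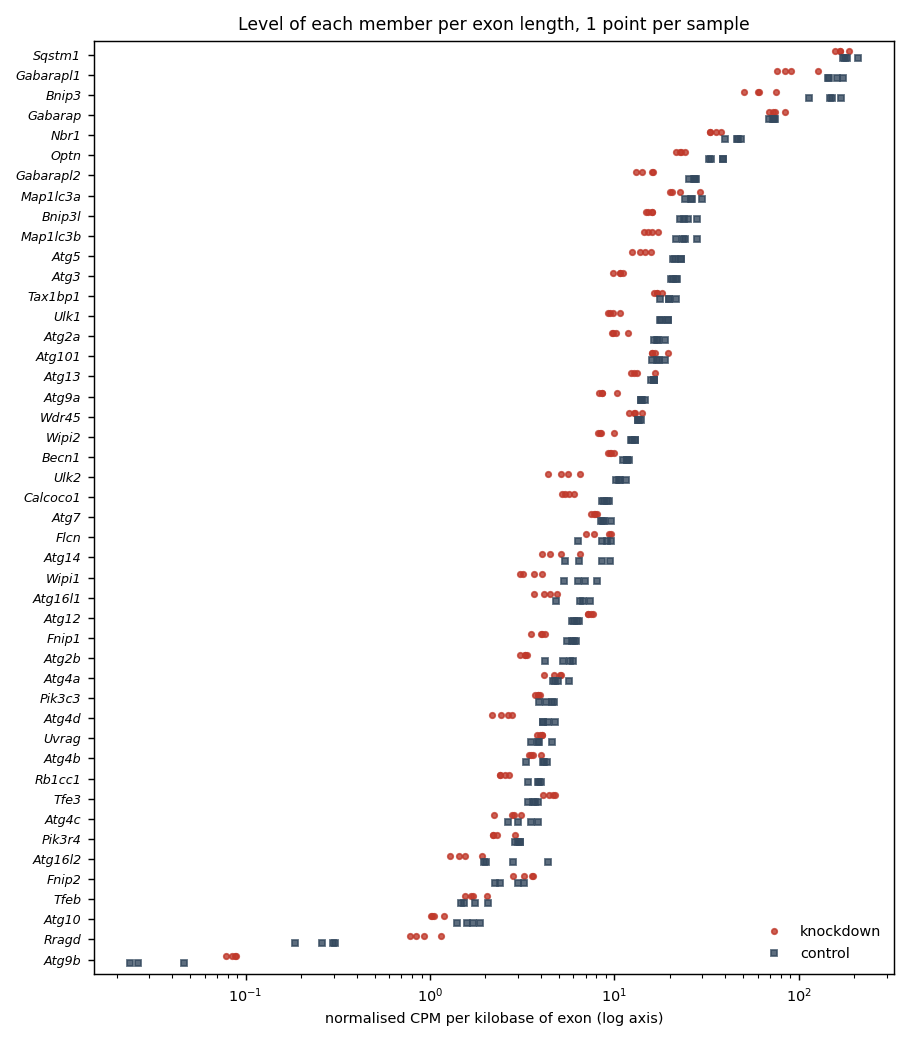
Normalised CPM per kilobase of annotated exon for each of the 46 members on a log axis, 1 point per sample, ordered by the control mean. Sqstm1 is at the top and Rragd and Atg9b at the bottom, a control value of 0 for Atg9b is not drawn, and the red knockdown points of most members lie left of the controls.

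Other genes of the pathway were counted from lists that are not members. Of 21 further genes of autophagosome formation and fusion, 5 fell and 2 rose, with a median log2 fold change of 0.01, where 27.8% of all genes fell and 29.5% rose. Under total-count scaling 18 were higher and 1 lower, with a median of 0.58, where 63.9% of all genes were higher and 7.72% lower. Ei24, a membrane protein of the endoplasmic reticulum needed for autophagy, averaged 189 ± 18.3 CPM in knockdown and 367 ± 43.6 CPM in control samples (log2 fold change -0.95 ± 0.11), and the fusion SNARE gene Stx17 averaged 27.2 ± 3.02 CPM in knockdown and 42.0 ± 1.92 CPM in control samples (-0.63 ± 0.09, without a call under total-count scaling). Of 14 further receptors and regulators of selective autophagy, 7 fell and 2 rose, with a median of -0.17. With total-count scaling 8 were higher and 1 lower, with a median of 0.39, beside the same shares of all genes. Retreg1, a receptor for sheets of endoplasmic reticulum, was not among the 3 smallest p-values of its list and was named after its values were seen: it averaged 45.3 ± 8.38 CPM in knockdown and 131 ± 49.1 CPM in control samples (-1.54 ± 0.27), and control replicate 4, at 59.4 CPM, lay nearest to the knockdown samples. Sec62, Ccpg1 and Pink1, the kinase that flags damaged mitochondria, had log2 fold changes of -0.65, -0.65 and -0.74, and none of the 3 passed under total-count scaling. Of 17 genes of the Rag, Ragulator and nutrient kinase list that were tested, 3 rose and 5 fell, against 29.5% and 27.8% of all genes. With total-count scaling 12 were higher and 0 lower, against 63.9% and 7.72% of all genes. The AMPK catalytic subunit gene Prkaa1 rose and Prkaa2 fell, with Prkaa1 at 24.1 ± 1.65 CPM in knockdown and 16.3 ± 0.92 CPM in control samples and Prkaa2 at 53.3 ± 3.37 CPM in knockdown and 72.6 ± 5.05 CPM in control samples (log2 fold changes 0.57 ± 0.08 and -0.45 ± 0.08, the second 0.13 and without a call under total-count scaling). Tfec, a relative of Tfe3 known from macrophages, rose by 1.01 ± 0.20. The other Rag genes Rraga and Rragc had log2 fold changes of -0.12 and -0.08 and did not pass. Rragb failed the filter on low counts. Its counts were 3, 8, 7 and 6 in knockdown and 1, 1, 3 and 0 in control samples. With no filter its log2 fold change was 1.53 ± 0.79 and did not pass (adjusted p = 0.165, edgeR).

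Of 19 lysosomal genes known as targets of TFEB, 10 rose and 2 fell, where 29.5% of all genes rose and 27.8% fell. Their median log2 fold change was 0.60. With total-count scaling 18 of them rose, where 63.9% of all genes were higher. Gpnmb, a glycoprotein of lipid-laden macrophages, averaged 49.8 ± 11.2 CPM in knockdown and 1.70 ± 0.43 CPM in control samples (log2 fold change 4.86 ± 0.21). Gla, alpha-galactosidase, rose by 1.51 ± 0.14. The lysosomal hydrolase gene Hexa averaged 104 ± 3.46 CPM in knockdown and 55.0 ± 3.11 CPM in control samples. Those that fell were Mcoln1, the lysosomal calcium channel (-0.68), and Tpp1 (-0.17, but 0.40 under total-count scaling). The CLEAR core was present before 8 of the 14 genes of this list with a promoter entry (57.1%), against 3.58% of all genes. The antioxidant response core was present before 6 of them (42.9%), against 11.5% of all genes. Because the list was chosen as known targets of TFEB, its CLEAR share is no test of TFEB in these samples. In the same samples 10 of 11 macrophage markers rose, and their part in these values was not tested.

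**Figure D5:**
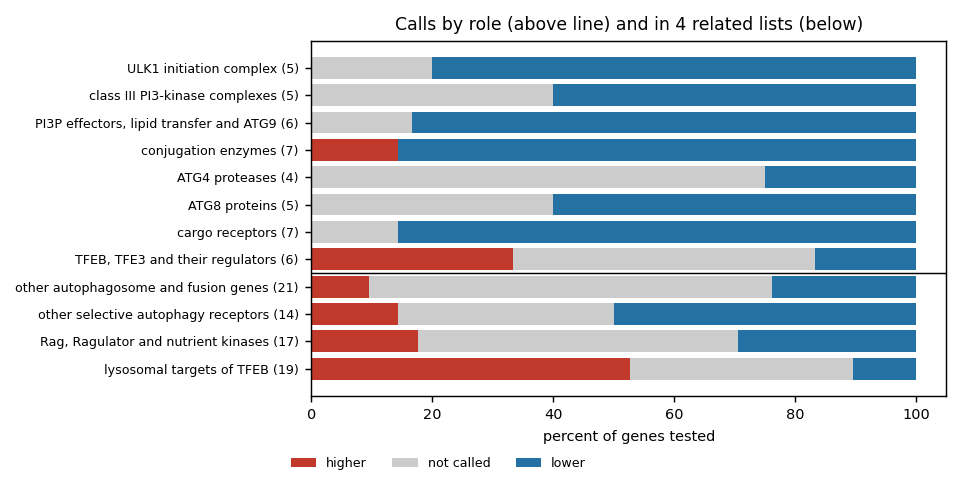
Share of genes tested that were called higher, not called or called lower in knockdown relative to control samples, for the 8 role groups of the members (above the line) and 4 lists of other pathway genes (below), with the number tested in brackets. With TMM factors 6 of the 8 role groups are mostly blue (lower), the ATG4 proteases and the TFEB regulators are not, and the lysosomal targets of TFEB are mostly red (higher). Of all genes tested 29.5% were higher and 27.8% lower.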

How the data were processed

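The authors deposited a table of estimated counts for each gene, without normalisation, whose 8 columns were matched to samples through the codes in the labels. Of its values 10.9% are not whole, and these were rounded. The submitters' processing notes list fastp 0.19.5, Bowtie2 2.2.9, GATK 3.8, SAMtools 1.9 and mm10, and per the labels' protocols RNA was depleted of ribosomal RNA. Neither the counting program nor the annotation nor strandedness is stated there. The 645 assembled loci without a gene, 0.676% to 1.08% of a sample's counts, were left out. The authors' deposited comparison gives a fold ratio per gene, its log2, a p-value and an adjusted p-value, and a gene length, per the file headers.

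The groups were compared with edgeR 4.0.16 under R 4.3.3 (filterByExpr, TMM, glmQLFit, glmQLFTest) over 15375 genes, with Benjamini-Hochberg adjustment over all of them and a threshold of 0.05. Normalised CPM use the TMM factors. The SE of a log2 fold change is approximate: its absolute value over the square root of the F statistic of the test. Levels per length use merged exons of GENCODE mouse release M21 (mm10), whose positions are given. Of the 46 members, 16 share exon bases with another gene, among them Becn1 (Cntd1), Sqstm1 (Mrnip), Gabarapl1, Bnip3 and Atg9a, so their counts are uncertain if strand was ignored. Ratios of paralogs were tested with two-sided exact permutation tests after adding 0.5 counts.

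The members, lists, pairs, motifs and tests were chosen with earlier results of these data known. Values in every sample are given for 8 members chosen by name, for the 4 members with the smallest p in each role and for the largest changes, and up to 3 changed genes are named per related list. Exceptions, chosen after their values were seen, are Atg9b, Retreg1, Rraga, Rragb, Rragc, Mcoln1, Tpp1 and Alb. The labels do not tie samples to separate animals, so p-values reflect only the spread among these samples, which may be technical. Counts of replicates differed by a chi-square of at least 9.82 per degree of freedom, so no library was counted as deposited again. Alternatives were DESeq2 1.42.0, other scalings, other filters, the replicate number or code letter in the fit, samples coded C alone (3 per group), a test against 1.5-fold and omission of each sample.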

Additional observations from a re-analysis of the deposited data

Results flagged for a closer look

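In 3 of the 112 groups of 4 values examined (46 members and 10 ratios in 2 groups), 1 sample lay far from the other 3 of its group, with a gap, as a share of the group's range, above Dixon's critical value for 4 samples. Chance gives such a gap in about 1 in 20 groups. Knockdown replicate 1 held 27.9 CPM of Pik3r4, where the other knockdown samples held 21.3 to 22.3 CPM. Knockdown replicate 3 held 105 CPM of Wipi2, where the others held 86.5 to 88.9 CPM. The same sample held 59.8 CPM of Atg9a, where the others held 47.8 to 49.5 CPM. Its shift was not limited to these genes. Over the members tested its median deviation from the mean of its group was 0.12 (log2), against -0.05 to -0.02 in the other knockdown samples.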

How the results depend on the processing

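Total-count scaling moved most: 20 members were higher and 7 lower, with a median of 0.0201, and the median gene was at 0.56. There the log2 fold changes of knockdown over control turned for Atg13 (0.32), Atg101 (0.54), Becn1 (0.28), Pik3c3 (0.39), Pik3r4 (0.25), Atg14 (0.000368), Wipi2 (0.0201), Wdr45 (0.50), Atg7 (0.38), Atg16l1 (0.00575), Atg4a (0.50), Atg4b (0.46), Atg4c (0.33), Map1lc3a (0.35), Sqstm1 (0.44), Nbr1 (0.19) and Tax1bp1 (0.37). Which scaling is closer to the RNA content of the samples was not tested. Values near 0 turned elsewhere: Uvrag with RLE factors (-0.002371), DESeq2 (-0.002106) and samples coded C alone (-0.0326), Atg101 (0.0508), Wdr45 (0.0132) and Atg4a (0.007155) with upper-quartile factors, Atg101 with no filter (0.00138) and with samples coded C alone (0.0459), and in the same samples Flcn (-0.0281) and the ratios Ulk1/Ulk2 (-0.0005916) and Atg2a/Atg2b (0.0597). A minimum fold of 1.5 left 1 member higher and 8 lower, by its stricter null hypothesis. With no filter the median was -0.44 and 26 members were lower, without Atg13, Atg7 and Tax1bp1. RLE factors, DESeq2 and a mean of at least 1 CPM each gave 3 higher and 29 lower. Leaving out each sample in turn gave 3 to 4 higher, 25 to 29 lower and a median of -0.55 to -0.43, and 28 of the 32 called members passed every time. The ranges that crossed 0 were -0.0959 to 0.0155 for Atg101, -0.0501 to 0.0754 for Uvrag, -0.005818 to 0.0845 for Gabarap, -0.0521 to 0.137 for Tfeb, -0.108 to 0.0842 for Flcn, -0.0240 to 0.125 for Ulk1/Ulk2 and -0.143 to 0.0473 for Atg2a/Atg2b. The deviations of same-numbered samples had correlations of -0.175, -0.0328, 0.0594 and 0.174 for replicates 1 to 4. Of 8 samples 2 correlated best with their own number. Such values show no clear pairing by number but cannot exclude one. In each group replicate 4 was the sample coded D and the others were coded C, letters that the labels do not explain. The replicate block gave 3 higher and 27 lower, and Atg7 and Tax1bp1 lost their calls. Upper-quartile factors gave 4 higher and 26 lower, losing Atg13, Atg7 and Tax1bp1 and gaining Fnip2 (edgeR adjusted p = 0.038). The code letter as a covariate gave 4 and 27, losing Atg13 (0.0546) and Tax1bp1 (0.0518) and gaining Fnip2 (0.042). Samples coded C alone gave 3 and 26, losing Atg13, Atg7 and Atg10 (edgeR adjusted p = 0.132, 0.0797 and 0.0504). Adding 1 count left 0 of the 10 paralog ratios passing, where the smallest possible exact permutation p was again 0.0286. Without a sample the ratios were given no test.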
